A study of Arabidopsis thaliana with 2 samples.

Results

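The plastid-encoded protein genes of Arabidopsis thaliana were examined in full-length cDNA reads of floral buds. A read was counted as a member when it aligned to the plastid genome and overlapped a protein-coding plastid gene on the same strand by at least 1 nt. RefSeq's TAIR10.1 annotation lists 85 such loci of 78 different genes, among 38003 nuclear and plastid genes in all. Of these 78 genes, 7 have 2 loci, with a copy in each arm of the inverted repeat (or reaching into it), and their loci were counted together by name. The member reads amounted to 2596 in replicate 1 and 3429 in replicate 2, which was 0.970% (95% Wilson interval 0.933 to 1.01) and 1.34% (1.30 to 1.39) of all aligned reads, or 1.16% ± 0.264 (SD, n = 2). They made up 61.5% ± 2.76 of the reads on the plastid genome.

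Both libraries were made from wild-type plants of the accession Columbia-0 (Col-0), from inflorescences with unopened buds, grown in 16 h of light and 8 h of dark. There is 1 condition, with 2 biological replicates, so no treatments or tissues were compared. Each replicate gave a single PacBio long-read library, with 267716 aligned reads in replicate 1 and 255215 in replicate 2. The reads were selected for a poly(A) stretch at the 3′ end of the cDNA, called the tail of the read below. This stretch alone does not show that the RNA itself was polyadenylated. The labelled tissue was checked with 8 marker genes of floral organs and tapetum, among them AP1, AP3, PI, AG and AMS, and all 8 had reads in both replicates, with 37 to 160 reads per gene.

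The plastid genome keeps the genes of a former cyanobacterium. Its proteins include core subunits of photosystem I (psa genes), photosystem II (psb), the cytochrome b6f complex (pet), ATP synthase (atp) and the NDH complex (ndh), together with a bacterial-type RNA polymerase (rpo) and ribosomal proteins (rps and rpl). Most of these genes lie in clusters that are transcribed together, and the long precursors are then cut, trimmed and spliced under the control of nuclear-encoded RNA-binding proteins. Plastid transcripts carry no cap. In plastids, a tail of adenines is short-lived and marks RNA for decay, whereas nuclear mRNAs carry a cap and a stable poly(A) tail.

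The 10 most-read 3′ ends of the member reads are shown first, because the results below turn on the bases that follow them. Ends on the same strand within 10 nt were merged and named by their most-read position. Each line gives the 10 bases up to the named position in lower case and the next 20 bases of the plastid genome in capitals. Both are 5′ to 3′ in the sense of the transcript (TAIR10.1, from RefSeq).
psbM, position 28686, minus strand: ttttactatcAAAAAAAAAAAAAGATTTCA
rps14, position 37201, minus strand: aagaagaggcAAAAATTGGAAAAAAAATAT
rpl32, position 113666, plus strand: aaatacatctAAAAAAAATAGGAAGCAAAA
atpE, position 52244, minus strand: gctgacgtgtAAAAAAAAAGAATGTATAAA
ndhD, position 115657, minus strand: agttttcaggAAAAAAAAAAGCATTAAAGT
rpoA, position 78112, minus strand: tagttaacctAAGAAAAAAAAAAAAAACAA
petD, position 76734, plus strand: attttggactAAAAAAAAAAAAGAAAATAA
psbJ, position 63184, minus strand: gtatttcatcAAAATTGAAAAAAAAAAAAA
ndhC, position 49978, minus strand: tacttgatacAATAATAAAAAAAAAAAAAG
psbI, position 7902, plus strand: attaggttccATAAAAAAAAAAAAAGGCTT
These 10 sites held 56.0% ± 0.869 (SD, n = 2) of the member reads. Each is followed by 14 to 18 A in 20 nt, with an unbroken run of 8 to 14 A. Reads that end at the named position stop before the run, as aligned after removal of the tail. Other reads of a merged site end nearby. At the psbJ site, for example, 162 of 271.5 reads ended at the named position.

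Over all member reads, 88.8% in replicate 1 (95% Wilson interval 87.6 to 89.98) and 89.7% in replicate 2 (88.6 to 90.7) ended at an A-rich place, defined as at least 12 A in the 20 nt downstream. Among nuclear reads the shares were 8.09% and 8.43%. The difference was larger than the counting error within each replicate (two-sided Fisher's exact test, log10 p of -2089 in replicate 1 and -2742 in replicate 2). Such windows are rare in the plastid genome itself, at 3.36% of positions on the forward strand and 4.02% on the reverse, and at 3.31% and 3.30% in the nuclear genome. Reads of plastid tRNA and rRNA genes that touched no protein gene ended at A-rich places in 66.3% of cases in each replicate, below the protein genes (two-sided Fisher's exact test, p = 4.96e-44 and 2.72e-55).

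The base composition around the ends was read position by position. The base just past the end was A in 92.3% of member reads in replicate 1 and 92.5% in replicate 2, against 67.0% and 67.3% of nuclear reads. At position 10 past the end, A was found in 81.5% and 80.9% of member reads, but in only 26.2% and 26.5% of nuclear reads. Within the last 20 nt of the read A made up 31.3% and 30.7% of the bases of member reads, against 28.8% and 28.99% in nuclear reads, a smaller difference than past the end. The tail was removed before alignment, and a genomic run of A that touches the tail cannot be told apart from it.

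**Figure D1:**
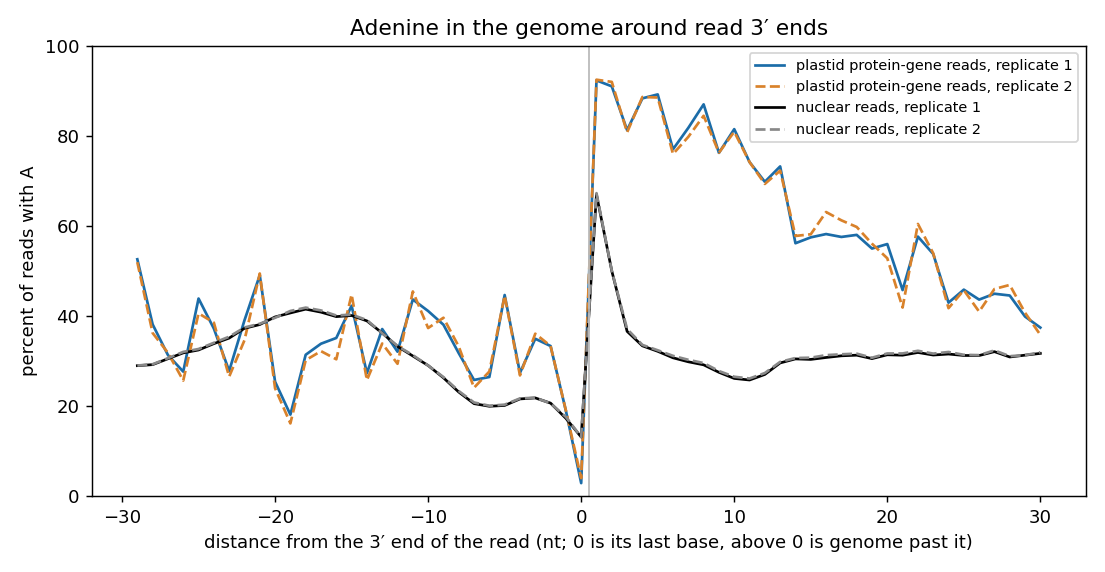
Percentage of reads with A in the genome at each position around the 3′ end, from 29 nt before the last base (0) to 30 nt past it, for member reads and nuclear reads of each replicate. Member reads jump to over 90% A just past the end and stay above 70% for 10 nt, whereas nuclear reads fall to 26.2% and 26.5% at position 10.

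The deposited alignments mark a 3′ end with a label, which the software removes by its own rule for A-rich places. The paper describes this rule as a filter against mispriming by oligo-d(T), a primer of T bases, at A-rich regions. Whether member reads were primed in this way was not tested. The rule differs from the 12 A used here, since 38.1% and 31.3% of the labelled member reads in replicates 1 and 2 lay at places with at least 12 A. Only 2.58% of member reads in replicate 1 (95% Wilson interval 2.04 to 3.26) and 1.95% in replicate 2 (1.54 to 2.47) kept this label, against 87.6% and 87.3% of nuclear reads (two-sided Fisher's exact test, log10 p of -2129 and -2811). The label and the A-rich share are not independent, since both read the same downstream bases. Reads of plastid tRNA and rRNA genes kept the label in 25.6% and 26.7% of cases, more often than member reads (two-sided Fisher's exact test, p = 9.21e-79 and 1.23e-108). The cap label, given where the read begins with an untemplated G, was found on 2.15% (1.66 to 2.79) and 2.10% (1.67 to 2.64) of member reads, against 55.9% and 57.3% of nuclear reads (log10 p of -795 and -1096). Against tRNA and rRNA reads, at 1.80% and 2.03%, no difference in cap label was detectable, with odds ratios of 1.19 (95% interval 0.647 to 2.32) and 1.04 (0.600 to 1.89; two-sided Fisher's exact test, p = 0.667 and 1).

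**Figure D2:**
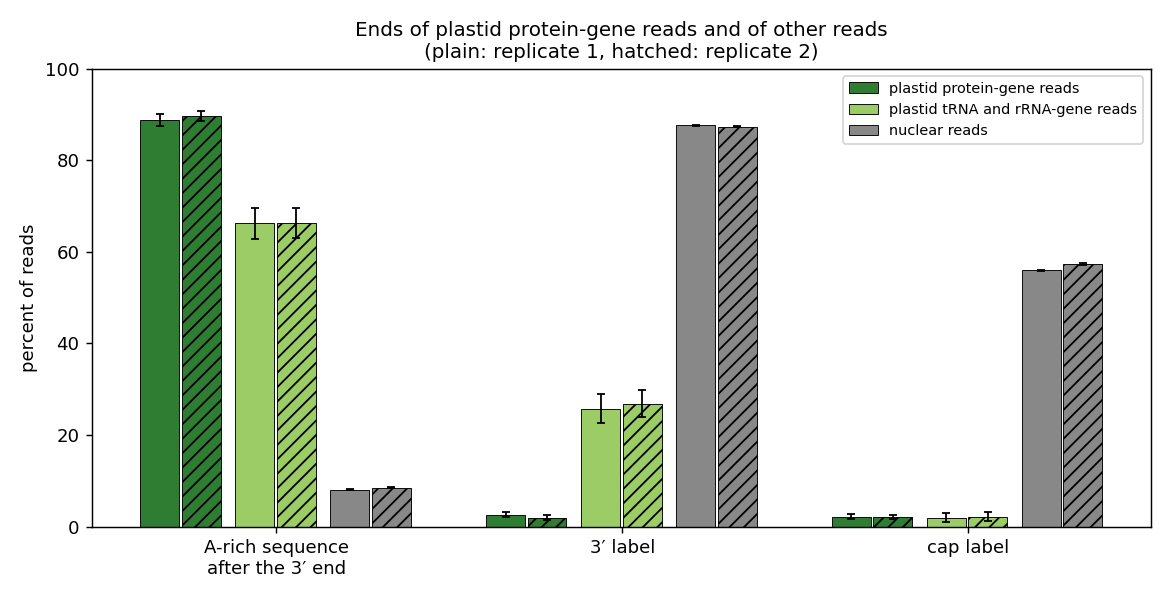
Percentage of reads with A-rich genome past the 3′ end, with a 3′ label and with a cap label, for plastid protein-gene reads, plastid tRNA and rRNA gene reads and nuclear reads; plain bars are replicate 1, hatched bars replicate 2, and error bars are 95% Wilson intervals. Member reads are near 89% A-rich, whereas their 3′ label and cap label stay below 3%.

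Nuclear genes for subunits of the same complexes were counted by the same rule. The 12 photosystem I genes kept the 3′ label on 86.5% ± 2.06 of their reads and the cap label on 59.5% ± 2.72 (SD, n = 2). For 11 photosystem II genes these shares were 97.9% ± 0.138 and 55.9% ± 0.658. The 2 cytochrome b6f genes had the lowest 3′ label of these lists, 68.6% ± 2.04, where AT2G26500 kept it on 29.7% of its reads and PETC, the Rieske protein, on 99.4%. Across the 6 lists, ATP synthase, NDH and Rubisco small subunit genes included, 3′ labels ranged from 68.6% to 97.9% and cap labels from 47.9% to 65.8%, all far above the plastid-encoded subunits.

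Reads per gene were uneven. Over both replicates the 78 genes had between 1 and 568.5 reads, with a median of 81.25, and 76 of them had reads in both replicates. A read that covered several genes was counted for each. Since genes differ in length, the read counts and orders by reads given below are not levels. To allow for length, depth was also used, the mean read depth per coding base, scaled to 1000000 aligned reads. In whole buds, the number of green cells and the plastid RNA per cell cannot be told apart, and no other tissue was compared. The depth counts reads that passed the selection for a tail, and most of these end at an A-rich place. It therefore also depends on where reads end and is not a measure of transcript level. For genes with several loci the coding bases of all loci were summed, which lowers their depth.

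The 5 photosystem I genes had a depth of 178 in replicate 1 and 654 in replicate 2, the highest of the groups in replicate 2. PsaB and psaA encode the reaction centre pair, and psaC the subunit that carries iron-sulphur clusters. The psaB gene (37375-39579, minus strand) had 183 and 320 reads. Only 32.9% of these covered its whole coding sequence, and 181 and 320 of them ran past its stop codon into rps14. The psaC gene had 24 reads in replicate 1 and 179 in replicate 2, and psaA had 20 and 150.5, so these genes were low in replicate 1 and high in replicate 2. The other members, psaJ and psaI, had 133 and 69.5 reads in all.

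The 15 photosystem II genes were read mostly through small subunits. The psbM gene (28707-28811, minus strand), which encodes a small subunit at the dimer interface of photosystem II, was the most-read gene of all, with 283.5 reads in replicate 1 and 285 in replicate 2. Its depth was 1052 and 1116, the highest among the 78 genes. Of its reads 99.1% covered the whole coding sequence, and most ended 21 nt past the stop codon, at the first sequence above. The psbI and psbJ genes, for further small subunits, followed with 314 and 279 reads. At the other end, psbN, an assembly factor on the opposite strand between psbT and psbH, had 0 reads in replicate 1 and 2 in replicate 2. The psbA gene, for the D1 protein of the reaction centre, had 3 and 7 reads and a depth of 5.53 and 15.7, and none of its reads covered the whole gene. It was singled out after its values were seen, as was rbcL below.

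For the cytochrome b6f complex, petD (subunit IV) had 113.5 and 174.5 reads, petB (cytochrome b6) 73.5 and 135, and petA (cytochrome f) 25.5 and 46. The petD reads ended inside its gene in 99.0% of cases, most of them at the site 254 nt into the gene, which lies in the petD intron. Only 2 reads covered the whole coding sequence of petD, and its depth was 5.22 and 21.2. The petN gene, for a very small subunit, had 0 reads in replicate 1 and 2 in replicate 2.

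Among the ATP synthase genes, atpE and atpB had the most reads. The atpE (epsilon) gene had 193 and 217 reads and atpB (beta) 171 and 200. The depth of atpE was 680 and 810, the next highest after psbM in the mean over replicates. The atpA, atpF, atpH and atpI genes, in a separate cluster, ranged from 16 to 68 reads in all. For the NDH complex, ndhD had 109 and 240 reads, ndhC 96 and 135, and ndhE 6 and 40.5. Its other 8 genes had 36.5 reads or fewer, and ndhB and ndhJ had 1.5 and 1 read over both libraries.

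The rpo genes had the lowest depth of the named complexes, 32.4 and 79.7. The rpoA (alpha) gene had 112 and 168 reads, rpoC2 33.5 and 48, and rpoC1 4 and 23. All rpoA reads ended inside the gene, most of them 779 nt into it. Among the 21 ribosomal protein genes, rps14 had 183 and 321 reads, rpl32 181 and 215.5, and rpl16 149.5 and 219. No rps14 read reached the stop codon, since all of them ended inside the gene, nearly all 40 nt from its start. Nearly all rpl32 reads ended 59 nt past its stop codon, and 92.2% covered the whole coding sequence. The rpl16 reads ended inside the gene in 86.2% of cases, at several places in its intron.

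The remaining group holds genes of other functions. The ycf1 gene, encoding a very large protein ascribed to the envelope import machinery, had 176.5 and 183 reads, all short of the whole coding sequence, with ends at several places inside it. The matK (maturase) gene had 40 and 75 reads and clpP, a protease subunit, 49.8 and 52.0. The rbcL gene, for the large subunit of Rubisco, had 19 and 15.5 reads and a depth of 56.6 and 55.8. The 4 nuclear genes of the small subunit had 2682 and 2835 reads together, of which RBCS1A had 1950 and 1981. Reads were selected for a tail, so these counts do not compare the levels of plastid and nuclear transcripts. In all, 8 of the 77 genes assessed had no read over the whole coding sequence: rps14, ycf1, rpoA, psbA, rpoB, ndhF, ycf2 and ndhJ. The trans-spliced rps12 gene was not assessed.

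**Figure D3:**
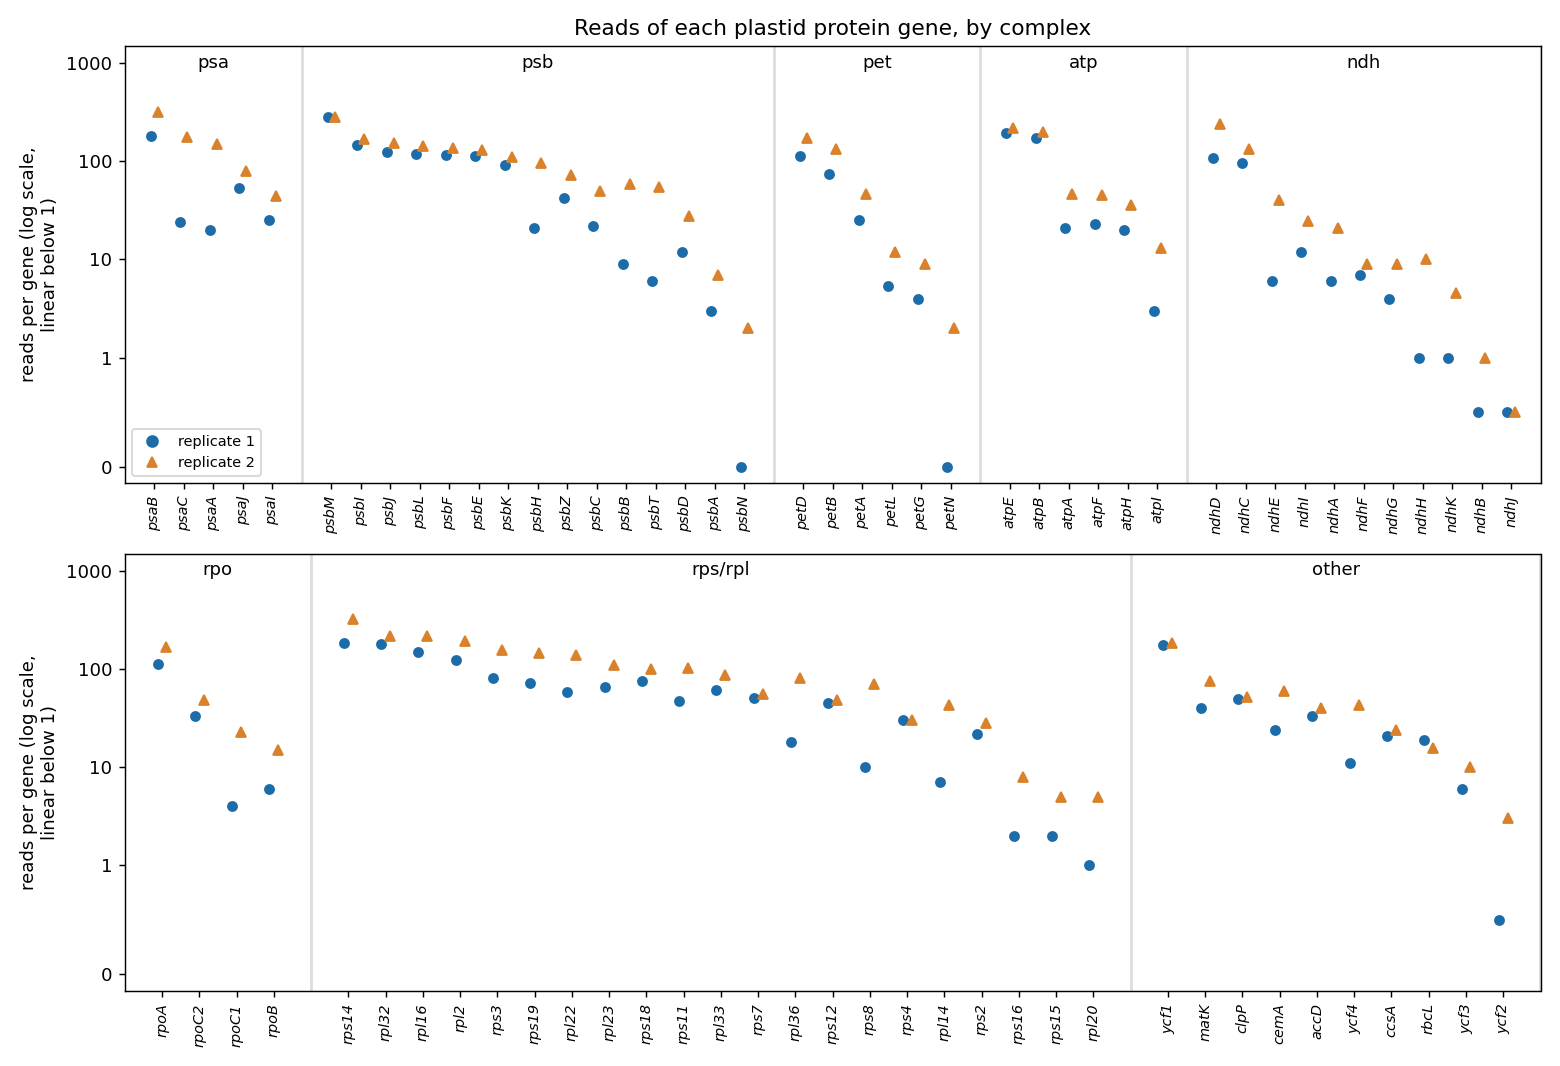
Reads of each of the 78 plastid protein genes in replicate 1 (circles) and replicate 2 (triangles), grouped by complex and ordered by total, on a log scale that is linear below 1. The most-read gene, psbM, is nearly equal in both replicates at 283.5 and 285 reads, whereas psaC, psaA, psbB and psbT lie far lower in replicate 1 than in replicate 2, and psbN and petN have 0 reads in replicate 1.

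A stretch of this kind was present in or near almost every gene. From the start of each gene to 300 nt past its end, the richest 20-nt window held 11 to 18 A, and in 77 of 78 genes it held at least 12. Of all plastid windows, 3.36% on the forward strand and 4.02% on the reverse hold at least 12. The richest of many windows was taken for each gene, and other spans of the genome were not counted. The 77 genes are thus not set apart from other plastid sequence. Whether the A count of the richest window goes with the reads of a gene was not tested.

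Ends were also placed against the annotation. Of member reads, 28.9% ± 1.16 (SD, n = 2) ended inside a coding sequence, 12.3% ± 0.244 in an intron and 58.8% ± 1.40 past the end of a gene. Within 100 nt past a stop codon lay 38.1% ± 1.37. The ends formed 327 sites, of which 64 had at least 10 reads. All 64 were seen in both replicates, and 55 of them (85.9%) were A-rich. The most-read sites that were not A-rich were at 2 borders of the inverted repeat, position 84171 on the minus strand and position 154478, the last base of the linear reference, on the plus strand. These had 8 and 6 A in 20 nt with 76.1 and 71.3 reads, and held 2.44% ± 0.411 of the member reads. The first lies inside rps19 and the other 166 nt past rpl2, and the last 10 bases before both are the same repeat sequence, cccgggcatc. An alignment cannot run past the last base of the linear reference, and reads that align to both repeat copies are divided between them. Whether these 2 places are ends of transcripts was not tested.

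The few reads that kept a 3′ label are given separately, because they are the ends that passed the filter. The label was present on 134 reads at 80 positions, 57 of which had at most 1 such read. Sequences of the most-read labelled ends and of the petD exon end are shown as above, with the bases past the end in capitals.
psbK, position 7264, plus strand, 9 labelled reads: caaaagatccAAAAAATCTTGACGTATGAA
rpl16 intron, position 81924, minus strand, 9 labelled reads: acttttttttTAATAAAAGTAATAAAAAAC
rbcL, position 56343, plus strand, 7 labelled reads: tgaagtatggAAAGAGATCACATTTAACTT
ccsA, position 115469, plus strand, 7 labelled reads: gaaggaatcgAAATCTAAATAAAAAAATAA
petD exon 1, position 76488, plus strand, 4 labelled reads: ttatgggagtGTGTGACTTGAACTATTGAT
The psbK end lay 62 nt past the stop codon and the ccsA end 22 nt past it. The rbcL end lay 1386 nt into its coding sequence, before the stop codon. Of all rbcL reads 28.99% kept the label, on 6 reads in replicate 1 and 4 in replicate 2. The 4 petD reads ended exactly at the last base of exon 1, 1 in replicate 1 and 3 in replicate 2. The 20 nt of genome past this place, with 5 A, belong to the intron. In spliced petD RNA exon 1 is instead followed by exon 2, which begins aacaaaaaaa. Whether these reads came from spliced RNA was not tested. The 9 labelled rpl16 reads belong to a merged site of 57 reads within 10 nt, of which 37 ended at the next base, position 81923, with 15 A in 20 nt.

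The 5′ ends were more spread out than the 3′ ends, with 1594 sites against 327. A start below means only the 5′ end of reads. The paper states that template switching also occurs readily at 5′ ends left by RNA decay. Starts of transcription were not told apart from cut or decayed ends. The 5 most-read sites held 17.6% ± 2.42 (SD, n = 2) of the member reads. The 30 bases before them are printed to show what lies upstream, with the motif TATAAT, the core of a bacterial-type promoter, in capitals where present. The motif was searched in the sense of the read, and 1.78% of all 30-nt windows of both plastid strands hold it.
psbM, start at 28988, minus strand: gatcttcctatgttatactattaaattctt
psbE, start at 64447, minus strand: tgtcagaagaaggatagctatactgattcg
psbK, start at 6853, plus strand: attacatagaattcaattaagatattgtat
rpl32 far, start at 112358, plus strand: ccaacagttgtaattaatattgacataata
rpl32 near, start at 113357, plus strand: ttgttttgaaaataataTATAATaaaattt
The psbM site, 177 nt before the start codon, had 198 and 205 reads, and 324 of the reads that began within 10 nt of it ran to the psbM end shown above, over 303 nt. The rpl32 gene had a far start 1091 nt before its start codon, with 67 and 90 reads, and a near start 92 nt before it, with 64 and 66 reads. Among these 5 sites, only the near rpl32 start held the motif, 13 nt before the start. Among the 40 most-read sites, these 5 included, 8 held it. The cap label was present on 0.526% to 3.66% of the reads at these sites.

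Long reads showed which genes were transcribed together. A gene was counted as covered when at least 100 nt of it, or the whole gene if shorter, lay in the read. Reads over 2 or more member genes made up 31.1% of member reads in replicate 1 and 43.9% in replicate 2, a mean of 37.5% that was 22.5% where whole genes had to be covered. In all, 99 different sets of genes were found, with up to 11 genes in a read. The atpB and atpE genes were joined in 166 and 196 reads, with a median length of 1891 nt. The psbE, psbF, psbL and psbJ genes, which encode cytochrome b559 and further small photosystem II subunits, were joined in 106.5 and 121.5 reads. The psbK and psbI genes were joined in 81.5 and 99.5 reads. The psaC and ndhD genes, of different complexes, were joined in 20 and 138 reads of 2069 nt, and psaA and psaB in 14 and 135.5 reads of 4833 nt. The last 2 pairs were seen mainly in replicate 2, whereas the first 3 sets had 81.5 to 196 reads in each replicate.

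Splicing was assessed at 14 annotated introns of 12 genes. Plastid introns of this kind are self-splicing introns by origin, of the group II class in these genes, and need proteins to be removed. Their ends are printed below for the introns with the most reads, with the exon in lower case and the intron in capitals.
rpl2 intron 5′ end: cctacctttgAGTGCGGTTT
petB intron 5′ end: gaatatgagtGTGTGACTTG
petB intron 3′ end: CTATCTCAATaaagtttatg
rps12 intron 5′ end: gggcgttctaGTGCGTTGTA
rps12 intron 3′ end: TCCACCCTACaatatggggt
atpF intron 5′ end: aagggagtgtGTGTGAGTTG
atpF intron 3′ end: CTACTTTCATtaaatgattt
Of the 14 introns 10 began with GTG as annotated, 11 ended with AC or AT, and none ended with AG. Where reads were spliced, 99.5% of the gaps had both ends exactly at the annotation. The aligner was given the junctions of TAIR10 transcripts, so this agreement is not an independent check of the annotated splice sites.

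A read was counted as spliced when its gap lay within 10 nt of both annotated ends, and as unspliced when it covered the whole intron and 10 nt on each side. Summed over introns, 74.3% of such reads were spliced in replicate 1 (119 spliced and 41.1 unspliced, 95% Wilson interval 67.1 to 80.5) and 55.4% in replicate 2 (198 and 159, 50.3 to 60.5). The intervals of the replicates did not overlap. The mean over replicates was 64.8%, but 25.6% where a read over 1 intron boundary counted as unspliced, since many reads end inside introns. The rpl2 intron was spliced in 73.7% of 57.7 and 20.6 reads in replicate 1, and in 61.8% of 82.2 and 50.8 reads in replicate 2, where the counts are spliced and unspliced reads. The petB intron, behind an exon of only 6 nt, was spliced in 53.8% and 30.2% of reads. The rps12 intron of the part in the inverted repeat was spliced in 87.5% and 76.4% of reads. The atpF intron was spliced in all 9 reads of replicate 1 and in 22 of 24 (91.7%) in replicate 2, and rpoC1 in all 10 reads of both. Intervals over both replicates were 27.2% to 43.6% for petB and 80.4% to 98.3% for atpF, which do not overlap. They pool 2 libraries whose petB shares were 53.8% and 30.2%. Where a read over 1 intron boundary counted as unspliced, unspliced reads were 13 and 18 for atpF, 1 and 6 for rpoC1, and 31 and 87.5 for petB. The high shares of atpF and rpoC1 thus hold only for reads that span the intron.

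The other introns had few reads. The rpl16 intron, behind a 9-nt exon, had 11 spliced and 8 unspliced reads, and 86.2% of all rpl16 reads ended inside the gene. The petD intron, behind an 8-nt exon, had 1 spliced and 1 unspliced read, and ndhA had 7 and 4. The second ycf3 intron was spliced in 6 of 8 reads. The first clpP intron had 1.66 spliced and 6 unspliced reads and the second 1.65 spliced and 0 unspliced, with fractions from reads divided between alignments. The rps16 intron was unspliced in all 5 reads and the ndhB intron had 0.5 unspliced and no spliced reads. The single spliced read of the first ycf3 intron had its gap 2 nt upstream of the annotated one at both ends. Its aligned 5′ junction is tacagagatgGTGCGATTTG, whereas the annotated one is cagagatggtGCGATTTGAT, so the aligned gap begins with GTG.

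**Figure D4:**
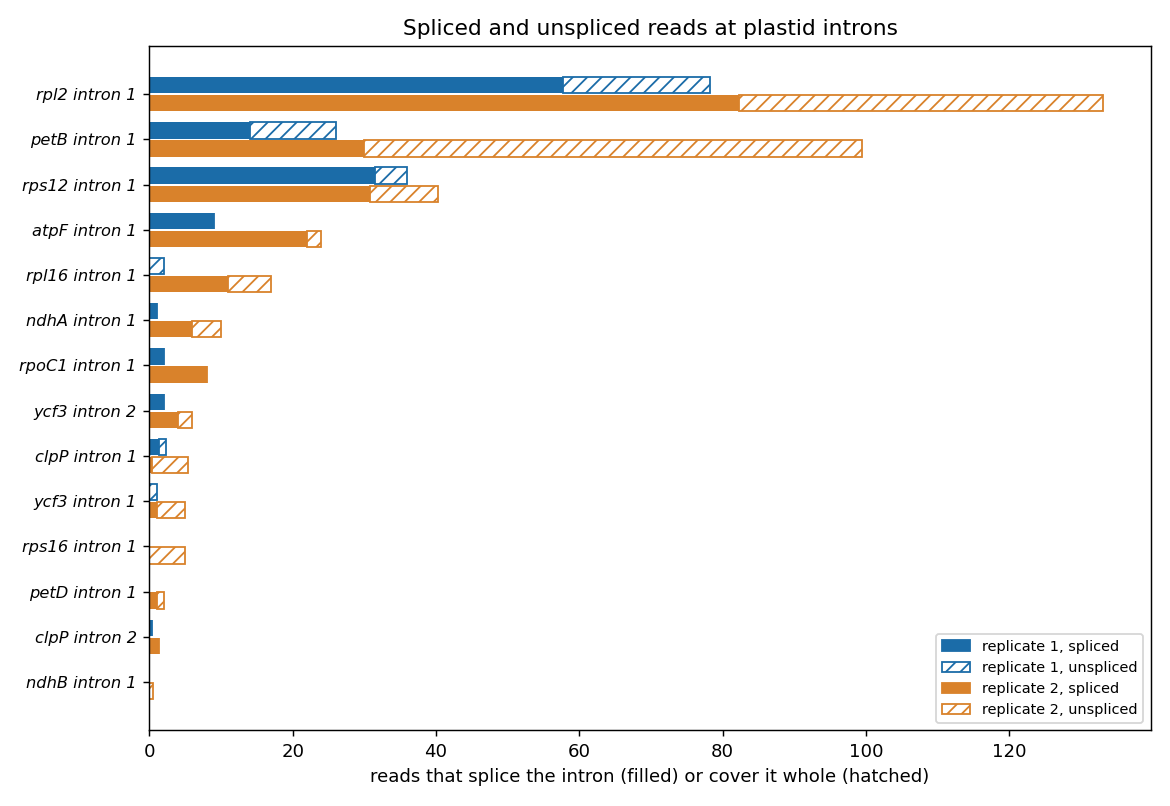
Reads that splice each plastid intron (filled) or cover it whole (hatched), in replicate 1 (blue, upper bar) and replicate 2 (orange, lower bar). The rpl2 intron has the most reads, and petB is the intron with the most unspliced reads in replicate 2, 69.5 against 30 spliced.

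The replicates differed in the reads of many member genes. With each gene tested against all other aligned reads (two-sided Fisher's exact test, Benjamini-Hochberg over 10186 nuclear and plastid genes with at least 10 reads), 27 of 70 member genes differed at an adjusted p below 0.05, all higher in replicate 2. Over all genes tested the share called was 1.65%, made up of 1.33% higher and 0.324% lower in replicate 2. These p-values compare 2 libraries and not conditions. A read over several genes was counted for each, at 1.59 genes per member read in replicate 1 and 1.93 in replicate 2. The psaB and rps14 genes, for example, shared 181 and 320 reads. The calls and ratios of genes in a cluster are therefore not independent. The psaC gene had 179 reads in replicate 2 and 24 in replicate 1 (Fisher's exact test, adjusted p = 2.82e-28), and psaA 150.5 and 20 (9.58e-24). The psbT gene had 55 and 6 reads (1.31e-08). By contrast, psbM had 285 and 283.5 reads (Fisher's exact test, adjusted p = 0.955) and rbcL 15.5 and 19 (adjusted p = 1). Of the 76 genes with reads in both, 75 had more reads in replicate 2 after scaling to library size, and the median ratio was 1.91.

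This difference went together with read length. The median aligned length of member reads was 1264 nt in replicate 2 and 829 nt in replicate 1, and that of nuclear reads 1258 nt and 1139 nt. Member reads of 2000 nt or more numbered 850 in replicate 2 and 130 in replicate 1, 6.85-fold more after scaling to library size. Nuclear reads of that length were 2.13-fold more. Below 500 nt the ratio was 0.988 for member reads and 0.790 for nuclear reads. When only reads under 2000 nt were kept for all genes, 0 of 60 member genes differed at an adjusted p below 0.05, beside 0.275% of 8373 genes. At an unadjusted p below 0.05 there were 16 member genes, and the share of all genes at that level was not counted. The limit of 2000 nt was chosen after the data were seen. The median ratio over these 60 genes was still 1.29, with a range of 0.814 to 5.76, and fewer reads were tested. The ratio of psaB was 1.01 in the shorter reads and 1.83 in all reads, and that of ndhD 0.997 and 2.31. By contrast, rpoC1 had 5.76 on 10 and 2 reads, against 6.03 in all reads, and psbC 2.16 against 2.36. In these shorter reads 71.8% of reads at introns were spliced in replicate 2 and 78.8% in replicate 1, and 30.7% and 28.7% of member reads covered 2 or more genes. Why the libraries differed in read length was not tested.

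**Figure D5:**
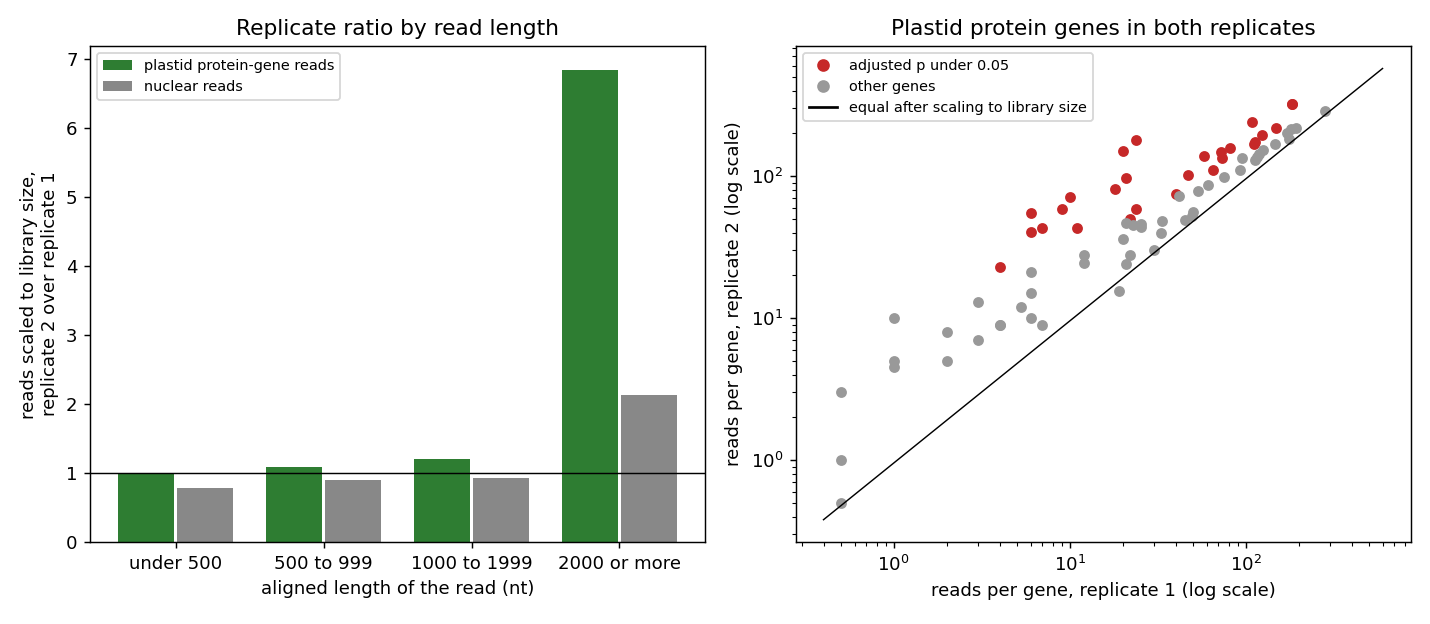
Left, ratio of reads, scaled to library size, in replicate 2 over replicate 1 by aligned read length, for plastid protein-gene reads and nuclear reads; right, reads per plastid protein gene in replicate 2 against replicate 1 on log scales, with genes at an adjusted p below 0.05 in red and the line of equal reads after scaling to library size. The ratio of member reads is 0.988 under 500 nt and 6.85 at 2000 nt or more, and the 27 genes in red all lie above the line.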

How the data were processed

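PacBio cDNA libraries of 2 replicates were analysed. According to the methods, the authors called consensus reads, kept full-length reads with a poly(A) tail, aligned them with minimap2 to TAIR10 and converted them with Bookend. The aligner was given the TAIR10 transcripts as known junctions. The deposited values are expected counts of reads per aligned structure, not normalized, and a read with several alignments is divided between them, so some are fractions. Counts were rounded to whole reads for tests. Chromosome length and read ends matched the plastid genome of TAIR10.1 (154478 nt). Mitochondrial genes were left out, since the reference used here has another mitochondrial sequence. Fisher's exact tests were run within each replicate (Python 3.11.15, scipy 1.17.1) and in simulated counts of 9361 genes the test over all genes called 111 of 200 genes changed 3-fold and 4 unchanged genes. Named were the 3 most-read genes of each group, genes with 0 reads or introns, the 10 3′ sites, 5 5′ sites and 5 gene sets with the most reads. Other genes were named after their values were seen. Members and lists were chosen with earlier results of these data known. Alternatives covered overlap, weights, A-rich rules, splice and site tolerances, and leaving out a replicate. Wilson intervals cover counting error only.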

Additional observations from a re-analysis of the deposited data

Results flagged for a closer look

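Reads outside the member definition were found on the plastid genome above the limit that a count of 0 allows, which is 0.00112% of replicate 1 and 0.00118% of replicate 2. Reads antisense to plastid protein genes made up 0.0685% of aligned reads, with 142.5 in replicate 1 and 214 in replicate 2. The clpP gene had the most, 36 and 52 reads, followed by rps12 with 13 and 45 and ycf1 with 30 and 27.5. Of these reads 93.9% ± 1.74 (SD, n = 2) ended at an A-rich place. Reads that touched no annotated plastid gene made up 0.341% of aligned reads, with 856 and 925 reads. Between petN and psbD lay 220.5 and 278.5 of them, and between psbZ and rbcL 162 and 149. These reads ended at A-rich places in 98.4% ± 0.364 of cases.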

How the results depend on the processing

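No paired analysis was possible because there is 1 group. The share of member reads in the library, 1.16%, ranged from 1.04% (without inverted-repeat genes) to 1.14% over the other definitions and from 0.970% to 1.34% without a replicate. The A-rich share was 60.0% with at least 15 A and 95.5% with at least 10 A, against 4.62% and 15.2% of nuclear reads, and 91.5% without the inverted-repeat borders, an alternative chosen after the data were seen. It was 88.8% to 89.7% without a replicate. The 3′ label stayed between 1.95% and 2.84% and the cap label between 2.08% and 2.51% under every alternative run, below nuclear reads each time. The spliced share was 64.8%, but 25.6% where a read over 1 intron boundary counted as unspliced, which adds the reads that end in introns, and 55.4% to 74.3% without a replicate. Reads over 2 or more genes were 37.5%, but 22.5% where whole genes had to be covered and 31.1% to 43.9% without a replicate. The 10 leading 3′ sites held 56.0% of reads, 45.0% without merging and 57.3% when merged within 25 nt. Against 27 of 70 member genes that differed between replicates, 28 of 53 were called with at least 50 reads, beside 7.69% of 1937 genes. With plastid reads as the library size for member genes, 15 of 70 were called, and 140 of 10186 genes in all. With reads under 2000 nt it was 0 of 60, where fewer reads were tested, beside 0.275% of 8373 genes. Depth limits genes with under 10 reads, 8 of 78, and the introns of ndhB, petD, rps16 and clpP.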
